A study of Mus musculus with 2 samples.

Results

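The 32 genes described here are a fixed list of glycolysis and hypoxia genes, all 32 of which had a row among the 32285 genes of the matrix. The list was drawn up by gene name, with earlier results of these data known. Skin came from C57BL/6 mice that were 8 weeks old, either depleted of neutrophils for 2 consecutive days with the anti-Ly6G antibody clone 1A8 or left as controls, and was digested with Liberase and a DNase. Depleted and control cells carried hashtag antibodies and were run as 1 pooled RNA library. The matrix holds 0 hashtag rows, so no barcode could be assigned to depleted or control skin, and no comparison of the 2 conditions was made. The comparisons below are between cell classes within that 1 library, which has no replicate. No test was therefore run, and every interval covers counting error only.

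Glycolysis splits glucose into pyruvate in a chain of enzymes, most of which exist as several isozymes encoded by separate genes. Skeletal muscle is known for its own set, among them the enolase gene Eno3, the phosphoglycerate mutase gene Pgam2 and the phosphofructokinase gene Pfkm, whereas most other tissues use Eno1, Pgam1 and the Pfkl and Pfkp genes. Many of the same genes are known targets of the hypoxia-inducible factor HIF-1, whose oxygen-labile subunit is encoded by Hif1a and is marked for destruction by the prolyl hydroxylases encoded by Egln1 and Egln3.

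Barcodes with at least 200 genes and no more than 20% mitochondrial UMIs were kept, 8127 of 8367, and 6362 of them passed the marker gate of exactly 1 class. None of the 32 members was a marker. The classes with at least 50 barcodes were muscle fibre (96), fibroblast (3615), keratinocyte (1257), macrophage (820), lymphocyte (280), monocyte (158) and dendritic cell (50). Neutrophils (29) and mast cells (22) were described as well, a choice made after their values were seen. Levels are UMIs per 1000000 UMIs of the class (CPM). A member was called higher or lower when its CPM in a class was at least 2-fold above or below that of the barcodes it was set against, a rule of size and not a test. All 32 members had at least 50 UMIs in gated barcodes, from 135 for Aldoc to 36814 for Gapdh, and so entered every comparison between classes.

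The promoters of 5 members that the results turn on are shown as the 250 bases before the RefSeq start site on GRCm38.p6. Pgam2 (chr11:5803797-5804046, minus strand) and Eno3 (chr11:70656926-70657175, plus strand) are the muscle isozyme genes with the largest folds. Ldha (chr7:46845554-46845803, plus strand, the first of 2 listed starts), Bnip3 (chr7:138909507-138909756, minus strand) and Egln3 (chr12:54203875-54204124, minus strand) are known HIF targets that differed between classes. Capitals mark the core letters of the HIF binding element, ACGTG or GCGTG, the E-box CAGCTG and the MEF2 motif, each searched on both strands. A CACGTG palindrome holds ACGTG once on each strand and so counts as a pair of matches.
Pgam2: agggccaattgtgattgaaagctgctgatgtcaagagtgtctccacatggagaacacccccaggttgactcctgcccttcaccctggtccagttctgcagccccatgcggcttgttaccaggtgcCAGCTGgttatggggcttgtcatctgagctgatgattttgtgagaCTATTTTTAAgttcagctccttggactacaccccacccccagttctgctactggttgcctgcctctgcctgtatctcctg
Eno3: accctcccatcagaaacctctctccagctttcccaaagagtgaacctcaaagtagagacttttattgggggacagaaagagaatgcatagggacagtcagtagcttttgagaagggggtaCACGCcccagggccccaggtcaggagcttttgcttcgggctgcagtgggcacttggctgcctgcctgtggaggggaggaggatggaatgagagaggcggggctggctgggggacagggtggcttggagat
Ldha: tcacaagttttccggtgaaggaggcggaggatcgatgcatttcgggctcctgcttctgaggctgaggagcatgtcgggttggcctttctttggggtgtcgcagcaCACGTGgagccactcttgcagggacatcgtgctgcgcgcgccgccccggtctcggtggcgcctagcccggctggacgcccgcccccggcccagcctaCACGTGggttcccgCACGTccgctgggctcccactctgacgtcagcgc
Bnip3: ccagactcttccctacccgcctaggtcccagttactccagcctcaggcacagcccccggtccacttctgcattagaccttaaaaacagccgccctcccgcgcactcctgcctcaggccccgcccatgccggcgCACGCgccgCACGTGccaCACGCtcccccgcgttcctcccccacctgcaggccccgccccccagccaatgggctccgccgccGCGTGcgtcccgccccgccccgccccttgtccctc
Egln3: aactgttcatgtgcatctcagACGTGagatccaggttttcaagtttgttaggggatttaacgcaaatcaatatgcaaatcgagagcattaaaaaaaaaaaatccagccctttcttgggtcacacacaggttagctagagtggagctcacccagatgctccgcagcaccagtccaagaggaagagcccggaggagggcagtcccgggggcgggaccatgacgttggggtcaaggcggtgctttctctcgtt
The HIF core letters were found in 28 of the 31 members with a promoter entry (90.3%), against 59.3% of the 11361 genes with at least 50 UMIs and 41.5% of all 27025 genes with an entry. The 3 members without them were Gpi1, Tpi1 and Pgam2. GC content was 60.6% in the members' promoters, 59.2% in those of the genes with 50 UMIs and 53.2% in all. The Ldha and Bnip3 promoters held 5 matches each, Eno3 and Egln3 held 1 each, and Pgam2 held neither ACGTG nor GCGTG in this window. CAGCTG occurred in 6 members (19.4%) and 14.6% of the genes with 50 UMIs. The MEF2 motif occurred in Pgam2, 80 bases before its start, as the only member (3.23%), and in 2.20% of the genes with 50 UMIs. These matches describe letters in the window and not binding. Ero1l is named only.

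Muscle fibre barcodes stood far apart from all other classes in glycolytic enzyme RNA. The 17 enzyme genes from hexokinase to pyruvate kinase, Hk1 to Pkm without the lactate genes, summed to 41249.5 CPM in muscle fibre barcodes (95% Poisson interval 40724 to 41780), which is 4.12% of their UMIs, against 1657 CPM in the other 6266 gated barcodes. Single barcodes ranged from 8931 through a median of 41492.5 to 66698 CPM in muscle fibre, against a median of 1463 and a highest value of 6883 CPM in the others. All 96 muscle fibre barcodes were above every other gated barcode, so the ranges did not overlap. Another 21 barcodes that passed the muscle gate together with another gate were in neither group. With Gapdh and Aldoa left out, the remaining genes still summed to 13908 CPM in muscle fibre and 954 CPM elsewhere.

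**Figure D1:**
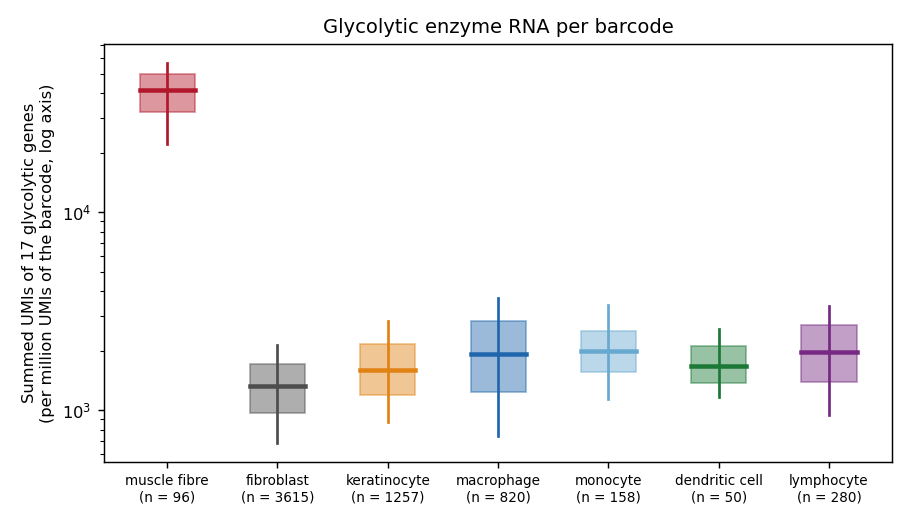
Summed level of the 17 glycolytic enzyme genes in CPM of a barcode (log axis) in the 7 classes with at least 50 barcodes. Boxes span the 25th to 75th percentile, thick lines are medians and thin lines run from the 10th to the 90th percentile; the muscle fibre median of 41492.5 CPM lies above all other classes.

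Of the 32 members, 16 were at least 2-fold higher in muscle fibre barcodes, where 10.4% of all 14903 genes tested were, and 10 were at least 2-fold lower, where 44% of all genes were. The median member had a log2 ratio of 1.02, against a median of -1.30 over all genes tested. Because the median gene was lower in CPM in muscle fibre, folds were also divided by that median ratio, an alternative chosen after the data were seen, which gave 19 members higher, with Hk2, Pfkfb4 and Pdk1 added, and 6 lower. The shares of 10.4% and 44% belong to the undivided rule. No share of all genes is given for the divided rule, so its member counts have no background to be read against. Eno1 and Slc16a1 then turned from lower to slightly higher than the typical gene, at 1.17 and 1.04 times its ratio.

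The largest folds were those of Eno3 and Pgam2, both in the later steps of the chain. Eno3 had 3221 UMIs in muscle fibre (5638 CPM), against 282 UMIs elsewhere (4.14 CPM), a 1363-fold difference with a lower bound of 1206. Pgam2 had 2289 UMIs (4006 CPM), against 77 (1.13 CPM), a fold of 3547 (2826 to 4511). Pgam2 was detected in all 96 muscle fibre barcodes and Eno3 in 95, and the lowest Pgam2 level of any muscle fibre barcode, 916 CPM, was reached by none of the 6266 others. Gapdh, which makes the step before ATP is first gained, reached 10101 CPM, against 455 CPM elsewhere (22.2-fold). Pgk1 was 5.56-fold and Pkm, the pyruvate kinase gene, 5.87-fold higher. The partners Eno1 and Pgam1 went the other way, at 29.8 CPM against 63.0 CPM (0.472-fold) for Eno1 and 31.5 CPM against 126 CPM (0.250-fold) for Pgam1. The Eno1 call was lost when barcodes that passed several gates were given to the larger one (0.663-fold) and when muscle markers were left out of the totals (0.603-fold). Divided by the median ratio, neither gene was lower by the rule, with Pgam1 at 0.617 and Eno1 at 1.17.

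In the earlier steps, Aldoa, an aldolase gene, reached 17240.5 CPM in muscle fibre, against 248 CPM elsewhere (69.5-fold). Pfkm followed at 284 CPM against 6.82 CPM (41.6-fold, interval from 34.5), Tpi1 at 1903 CPM against 127 CPM (15.0-fold) and Gpi1 at 439 CPM against 139 CPM (3.16-fold). The other phosphofructokinase genes were lower, Pfkp at 5.25 CPM against 102 CPM (0.0517-fold) and Pfkl at 3.50 CPM against 12.6 CPM (0.279-fold on 2 UMIs, with an interval that reaches 1.01). The Pfkl call was lost when barcodes of several gates went to the larger one (0.945-fold), without the 10 deepest barcodes, where it had 0 UMIs (at most 0.616-fold), and under the median ratio (0.688). Aldoc, the second aldolase gene, had 0 UMIs in muscle fibre.

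Of the 4 members of glucose entry and phosphorylation, 0 were higher and 2 lower, against 10.4% and 44% of all genes. Slc2a1, which encodes the glucose carrier GLUT1, had 3 UMIs in muscle fibre, at 5.25 CPM against 31.98 CPM elsewhere (0.164-fold). Hk1 had 0 UMIs in muscle fibre, against 38.0 CPM, at most 0.138-fold. Hk2 was at 77.0 CPM against 68.3 CPM (1.13-fold), inside the 2-fold rule, and above it (2.78) once folds were divided by the median ratio. The Hk3 value in muscle fibre rested on 2 UMIs of 1 barcode. Slc2a4, the insulin-regulated glucose carrier of muscle and no member, was higher, at 47.3 CPM against 0.352 CPM (134-fold). With 24 UMIs elsewhere, it reached the minimum of 50 UMIs only through muscle fibre, so its call was fixed by that minimum. Pfkfb3, which makes the activator of phosphofructokinase, had 1 UMI in muscle fibre (0.146-fold). That UMI lay in the 10 deepest barcodes, without which Pfkfb3 had 0 UMIs, at most 0.644-fold, and no call. Pfkfb4 was at 10.5 CPM against 11.3 CPM.

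Genes that handle pyruvate and lactate were higher in part. Ldha reached 2478 CPM in muscle fibre against 178 CPM elsewhere (13.9-fold), and Ldhb 408 CPM against 13.0 CPM (31.4-fold). Slc16a3, the lactate exporter gene, passed the rule at 28.0 CPM against 12.9 CPM (2.18-fold on 16 UMIs), but fell inside it without the 2 muscle fibre barcodes that carried 3 or more markers of another class (1.62-fold). Slc16a1, the other lactate carrier, was at 8.75 CPM against 20.8 CPM (0.420-fold), a call lost under the larger gate (0.597-fold) and with muscle markers left out of the totals (0.536-fold). Pdk1, which restrains pyruvate dehydrogenase, was at 12.3 CPM against 7.20 CPM (1.70-fold, 7 UMIs).

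Oxygen-linked members split. Bnip3, a mitophagy receptor gene, was 8.65-fold higher in muscle fibre (173 against 20.02 CPM), Egln3 5.39-fold (26.3 against 4.87 CPM) and Egln1 3.41-fold (166 against 48.8 CPM). Egln3 was not particular to muscle fibre: lymphocytes had 23.3 CPM, with an overlapping interval, and their T cell barcodes had 47.6 CPM on 15 UMIs. Ankrd37 was at 2.31-fold on 8 UMIs, with an interval from 0.989. Hif1a was 0.105-fold, at 12.3 CPM against 117 CPM, and Ero1l, an oxidase of the endoplasmic reticulum, had 1 UMI against 25.3 CPM elsewhere (0.0693-fold). Ddit4, a stress-induced inhibitor of the mTOR complex, had 0 UMIs in muscle fibre, which allows at most 0.508-fold, and so had no call.

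**Figure D2:**
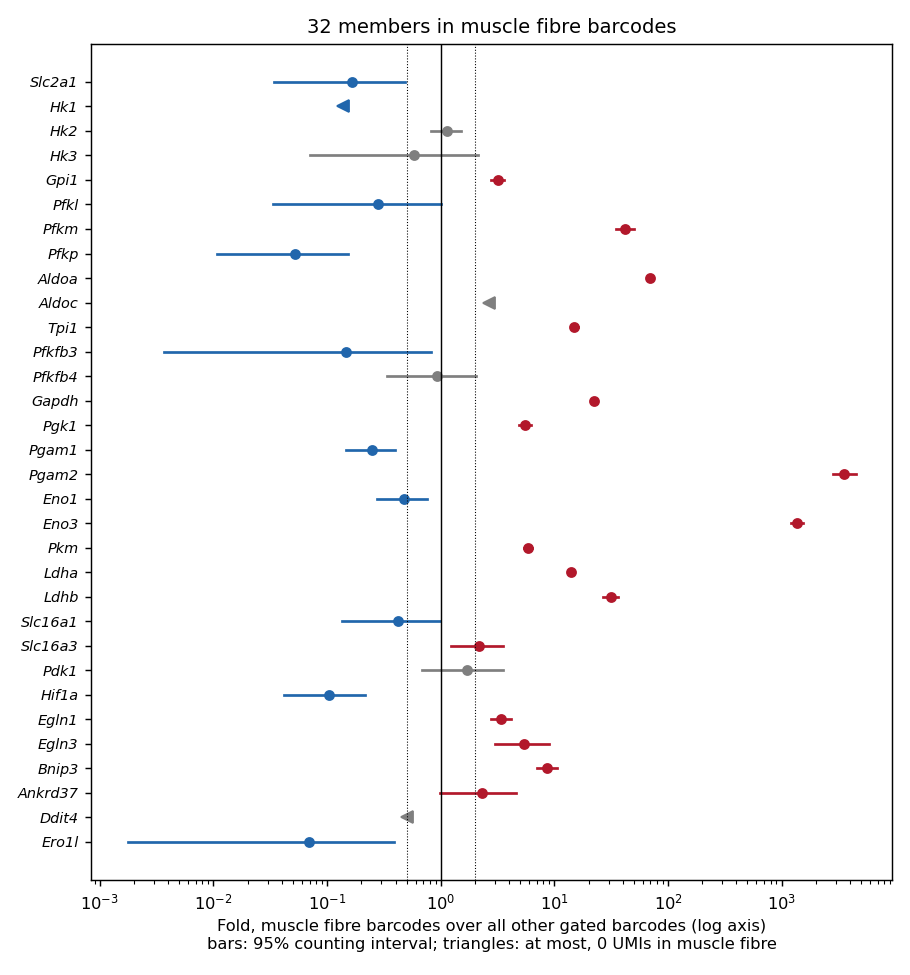
Fold of each of the 32 members in muscle fibre barcodes over all other gated barcodes (log axis). Points are ratios of CPM, bars 95% counting intervals and triangles the highest fold allowed where muscle fibre had 0 UMIs. Dotted lines mark 2-fold; red is higher, blue lower and grey neither, and Pgam2 at 3547 and Eno3 at 1363 lie farthest right.

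Muscle fibre barcodes also differed in their make-up. They had a median of 4376.5 UMIs, against 10450 elsewhere, and a median mitochondrial share of 0.0189%, against 1.44%. Markers of muscle fibre made up 216875 CPM. The fast myosin genes Myh4 (793 CPM) and Myh1 (739 CPM) were present and the slow Myh7 had 0 UMIs. Of the 15 dissociation stress genes, 14 were lower and 0 higher, and Malat1 was at 775 CPM against 7651 CPM. Summed over the class, the mitochondrially encoded mt-Co1 was at 541 CPM against 3106 CPM. That sum lies above the median mitochondrial share of muscle fibre barcodes, so it is not the level of a typical one. In contrast, all 16 nuclear respiratory chain genes were higher, with Atp5a1 at 3.47-fold. The part of these differences in the glycolysis values was not tested. Summed marker lists of other classes ran from 0 to 282 CPM in these barcodes, with the neutrophil list highest on 1 of its 7 markers. All 8 T cell markers and all 7 mast cell markers were at 0, and 1 of 6 fibroblast markers, whose list summed to 87.5 CPM. Another 21 barcodes passed the muscle gate together with another gate and were left out.

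In muscle fibre 10.4% of all genes were higher and 44% lower. The stress and respiratory chain counts above and the other pathway lists are read against these shares. In pyruvate dehydrogenase and the TCA cycle 15 of 19 genes were higher and 1 lower, with Pdk4 at 94.5 CPM against 6.59 CPM (14.4-fold). Of 12 glycogen and gluconeogenesis genes tested, 7 were higher and 4 lower. The higher ones included the muscle glycogen phosphorylase gene Pygm, at 705 CPM against 4.91 CPM (144-fold), and Fbp2 (456-fold). Fbp2 had 22 UMIs elsewhere and reached the minimum of 50 UMIs only through muscle fibre, so its call was fixed by that minimum. Of the 7 pentose phosphate genes 0 were higher and 4 lower, among them G6pdx, which starts that pathway, at 1.75 CPM against 35.2 CPM (0.0498-fold). Of 16 other HIF-responsive genes 2 were higher, Higd1a (3.23-fold) and Fam162a, and 7 lower, including Vegfa (0.383-fold); the list's median log2 ratio was -1.32, against -1.30 for all genes.

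A UMI counts a captured molecule, so the share of an isozyme in its family can be compared between classes. Eno3 made up 99.5% of Eno1 and Eno3 UMIs in muscle fibre (exact binomial interval 99.2 to 99.7), 10.3% in fibroblasts, 2.52% in keratinocytes and 2.65% in macrophages. For Pgam2 the share was 99.2% in muscle fibre and 0.845% in fibroblasts. Pfkm held 97.0% of phosphofructokinase UMIs in muscle fibre, 9.01% in fibroblasts and 2.96% in keratinocytes, where Pfkp held 80.6%. For these 3 families the intervals of muscle fibre and of each skin class named here lie apart. Ldhb differed less, with 14.1% in muscle fibre, 10.1% in keratinocytes, 7.66% in fibroblasts and 0.404% in macrophages.

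Hexokinase shares differed between keratinocytes and fibroblasts. Keratinocytes had 68.8% Hk1 and 30.8% Hk2, whereas fibroblasts had 29.8% Hk1 and 69.2% Hk2. Macrophages carried 26.2% Hk3 (23.7 to 28.7), monocytes 21.5% (15.1 to 29.1), and fibroblasts 1.02%; the macrophage and monocyte intervals overlap. In muscle fibre 44 of 46 hexokinase UMIs were Hk2 (95.7%) and 0 were Hk1, which allows a share of up to 7.71% (exact binomial bound).

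**Figure D3:**
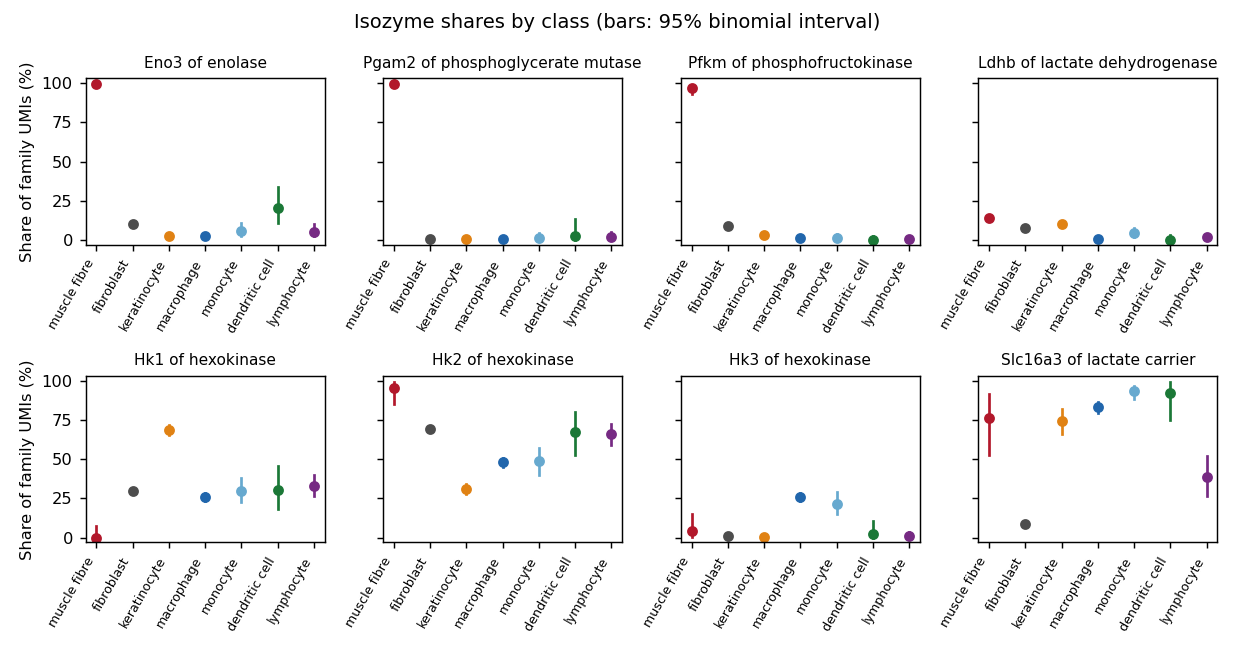
Share of each isozyme's UMIs in its gene family, in percent, for the 7 classes with at least 50 barcodes; points are shares and bars exact 95% binomial intervals. Eno3, Pgam2 and Pfkm reach 97.0% or more in muscle fibre, and Hk1 reaches 68.8% in keratinocytes.

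RNA of the muscle isozymes outside muscle fibre was set against Acta1, the skeletal muscle actin gene. Per 100 Acta1 UMIs there were 6.52 Pgam2 UMIs in muscle fibre and 7.33 in all other gated barcodes (5.74 to 9.25), so the intervals overlap. For Eno3 the ratios were 9.18 in muscle fibre and 26.9 elsewhere (23.5 to 30.7), which lie apart. After each barcode was thinned to 1000 UMIs, which left out 8 muscle fibre and 15 fibroblast barcodes for depth, 87 of 88 muscle fibre barcodes had an Eno3 UMI and 17 of 3600 fibroblast barcodes did (0.472%; 4.90% without thinning).

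Among skin classes, each was set against the other gated skin barcodes without muscle fibre. Fibroblasts supplied 43005390 of those 68170671 UMIs, so the values for the other classes are in large part values relative to fibroblasts. In fibroblasts 2 members were higher (19.4% of all 14801 genes tested were) and 12 lower (23.9% of all genes); Hif1a, at 0.446-fold, came inside the rule once divided by the median ratio (0.508). Slc16a1 stood at 29.2 CPM against 6.52 CPM (4.49-fold) and Pfkm at 8.58 CPM against 3.81 CPM (2.25-fold). The 12 lower members included Slc16a3 (2.88 against 29.9 CPM, 0.0964-fold), Egln3 (0.0871-fold), Slc2a1 (18.1 against 55.8 CPM, 0.324-fold) and Eno1 (0.369-fold). The median member had a log2 ratio of -0.75, against -0.19 for all genes. Hk2 was at 82.3 CPM against 44.4 CPM (1.85-fold), inside the rule. Among 16 other HIF-responsive genes 5 were higher, including Vegfa and Adm, and 5 lower; of 11 glycogen genes tested 6 were higher and 0 lower.

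Keratinocytes had 8 members higher, against 15.6% of all genes, and 7 lower, against 30.6%. Slc2a1 was at 76.8 CPM against 20.8 CPM (3.70-fold), Hif1a at 218 CPM against 91.8 CPM (2.37-fold) and Egln3 at 17.3 CPM against 1.76 CPM (9.82-fold). Aldoc was at 7.99 CPM against 0.477 CPM (16.8-fold), Pdk1 at 3.95-fold, Ddit4 at 3.81-fold, Pfkl at 3.41-fold and Ldhb at 2.60-fold. Both lactate carriers were lower, Slc16a1 at 2.35 CPM against 25.5 CPM (0.0921-fold) and Slc16a3 at 6.89 CPM against 14.4 CPM (0.480-fold). Hk2 was also lower, at 20.4 CPM against 80.3 CPM (0.254-fold), as were Hk3, Pfkfb3, Pfkfb4 and Eno3 (0.494-fold). Of the 16 other HIF-responsive genes 5 were higher and 6 lower, and Vegfa was in the lower group.

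Within keratinocytes, 28 members had 50 UMIs. Basal barcodes (766) had 2 members higher and 1 lower, against 6.43% and 4.97% of genes. Hif1a was at 279 CPM in basal barcodes and 119 CPM in the other keratinocytes (2.36-fold), Slc16a3 at 9.24 and 3.09 CPM (2.99-fold) and Hk2 at 13.5 and 31.7 CPM (0.426-fold). Follicle barcodes (149) had 2 higher and 2 lower, against 12% and 8.58% of genes. Hk2 was at 80.9 CPM in follicle barcodes and 15.0 CPM in the others (5.40-fold), Pfkfb4 at 2.65-fold, Hif1a at 80.0 and 231 CPM (0.347-fold) and Eno1 at 0.405-fold. The share of Ldhb in its family was 25.4% in follicle barcodes (19.4 to 32.1) and 9.68% in basal ones. Suprabasal barcodes (338) had 0 higher and 1 lower, Slc16a3, against 3.88% and 13.9% of genes.

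Macrophages had 7 members higher, against 14.6% of genes, and 5 lower, against 31.5%. The myeloid hexokinase gene Hk3 was at 40.0 CPM against 1.59 CPM (25.1-fold, interval from 19.9) and Slc16a3 at 44.1 CPM against 8.79 CPM (5.01-fold). Pfkfb3 was 3.79-fold and Ankrd37 3.20-fold higher. Among the later steps Eno1 (2.52-fold), Pgk1 (2.20-fold) and Pkm (2.13-fold) passed the rule. Eno1 and Pkm fell inside it when every barcode was given the same weight (1.98-fold and 1.75-fold). With folds divided by the median ratio 12 members were higher and 5 lower, with Gapdh, Ldha and Gpi1 among those added. No share of all genes is given for that rule. Ldhb was at 1.14 CPM against 14.5 CPM (0.0786-fold), and Pfkm, Slc16a1, Egln3 and Ddit4 were lower too. Hk3 UMIs were found in 27.0% of macrophage barcodes and 0.318% of keratinocyte barcodes, at median depths of 8675 and 10744 UMIs, and after thinning to 1000 UMIs in 37 of 809 and 0 of 1249, which allows up to 0.295% (exact binomial bound).

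Lymphocytes had 6 members higher, against 16.2% of genes, and 5 lower, against 25.9%. Once divided by the median ratio, 9 were higher and 4 lower, with no share of all genes given for that rule. Egln3 was at 23.3 CPM against 4.47 CPM (5.20-fold), Ero1l at 95.7 CPM against 23.7 CPM (4.04-fold) and Ldha at 360 CPM against 174 CPM (2.07-fold). Pfkfb3 (2.90-fold), Ddit4 (2.89-fold) and Pfkl (2.47-fold) were also higher. The lower members were Hk3, Pfkm, Pfkfb4, Ldhb and Bnip3 (6.15 against 20.3 CPM, 0.303-fold). Only 16 members had 50 UMIs within lymphocytes. Gamma-delta T cell barcodes (55) had 3 higher and 1 lower, against 14.3% and 13.3% of genes. Hk2 was at 224 CPM in them and 37.6 CPM in the other lymphocytes (5.94-fold), with UMIs in 22 of the 55 barcodes. Tpi1 (2.24-fold) and Egln1 (2.26-fold) were higher and Hif1a lower (0.298-fold). NK cell barcodes (79) had 0 higher and 2 lower, Hk2 and Ero1l, against 5.76% and 14.3% of genes, and all 7 of their Hk2 UMIs lay in 1 barcode. Group 2 innate lymphoid barcodes (48) had 1 higher, Hif1a at 2.10-fold, and 2 lower, Slc2a1 and Egln1, against 6.99% and 20% of genes. T cell barcodes (72) had 0 higher and 0 lower, against 3.27% and 8.94%.

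**Figure D4:**
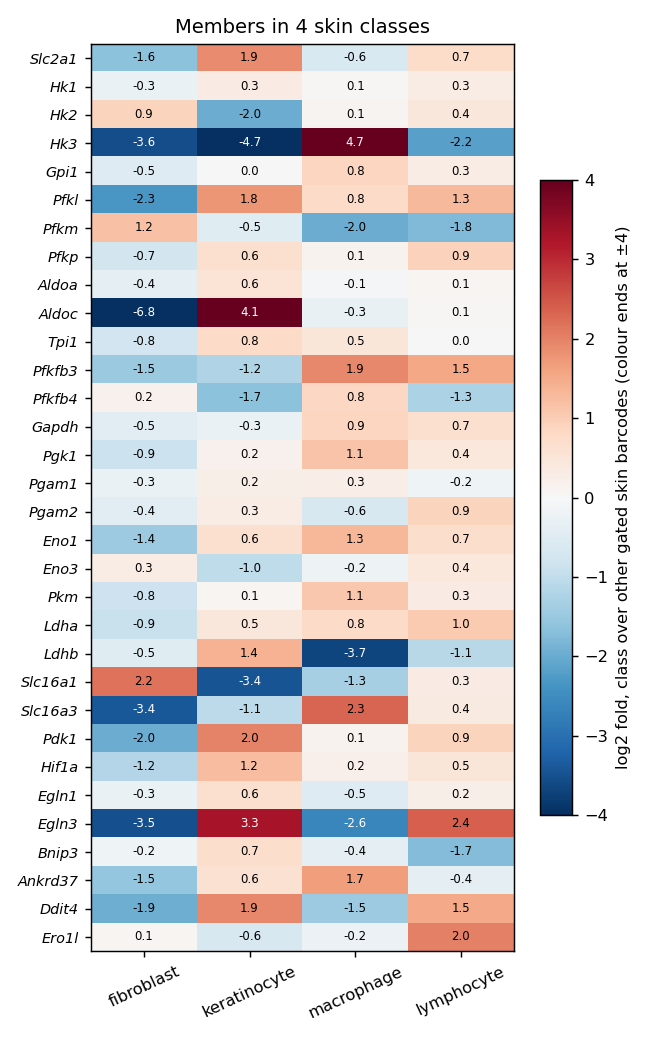
Log2 fold of each of the 32 members in fibroblasts, keratinocytes, macrophages and lymphocytes over the other gated skin barcodes without muscle fibre. Red is higher and blue lower, and the colour ends at 4 log2 units. Among these classes the fold of Hk3 is largest in macrophages, and those of Aldoc and Egln3 in keratinocytes. The CPM of Egln3 was larger in lymphocytes than in keratinocytes, an order that was not tested.

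Smaller myeloid classes were led by Slc16a3. In neutrophil barcodes it had 123 UMIs (990 CPM, 823 to 1181), against 11.1 CPM in the other skin barcodes, an 89.3-fold difference (73.2 to 108). It was found in 26 of 29 neutrophil barcodes, with single-barcode levels from 0 through a median of 1507 to 4451 CPM, and after thinning in 22 of 27 neutrophil barcodes and 8 of 3600 fibroblast barcodes. Pkm (3.02-fold), Slc2a1 (5.33-fold), Hk3 (8.11-fold on 6 UMIs) and Eno1 (2.56-fold) were higher too, of 9 higher and 1 lower in all, against 14.5% and 14.7% of genes. The lower one was Slc16a1 on 1 UMI (0.386-fold, 0.00976 to 2.15), and Egln3 was higher on 2 UMIs (3.32-fold, 0.400 to 12.1). These intervals hold 1. The Eno1 UMIs lay in 5 of the 29 neutrophil barcodes, with 14 of 20 in 1 barcode. Those of Slc2a1 lay in 11 barcodes, with 8 of 21 in 1 barcode. Fibroblast markers stood at 1924 CPM in the 29 neutrophil barcodes, and their part in the values was not tested. Monocytes had 5 higher and 3 lower, against 12.6% and 27% of genes: Slc16a3 was at 102 CPM (9.17-fold), Pfkfb3 at 4.43-fold, Hk3 at 4.26-fold, Pfkfb4 at 3.15-fold and Pkm at 2.09-fold.

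Dendritic cells had 6 higher and 6 lower, against 11.9% and 24.3% of genes. Among the lower, Hk3 (0.308-fold) and Egln3 (0.381-fold) rested on 1 UMI each, with intervals that hold 1. Pfkfb3 was at 63.5 CPM (5.47-fold), Eno3 at 20.5 CPM on 11 UMIs in 3 of the 50 barcodes (5.12-fold), Ddit4 at 41.1 CPM (4.07-fold) and Pfkp at 244 CPM (2.43-fold), while Aldoa was lower at 114 CPM (0.457-fold). Mast cells had 9 higher and 2 lower, against 17.1% and 8.28% of genes, on 53105 UMIs in all. Ero1l had 10 UMIs (188 CPM, 7.49-fold, 3.59 to 13.8) and Slc16a1 had 7 (132 CPM, 6.35-fold). For 6 of the 11 mast cell members with a call the interval held 1.

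**Figure D5:**
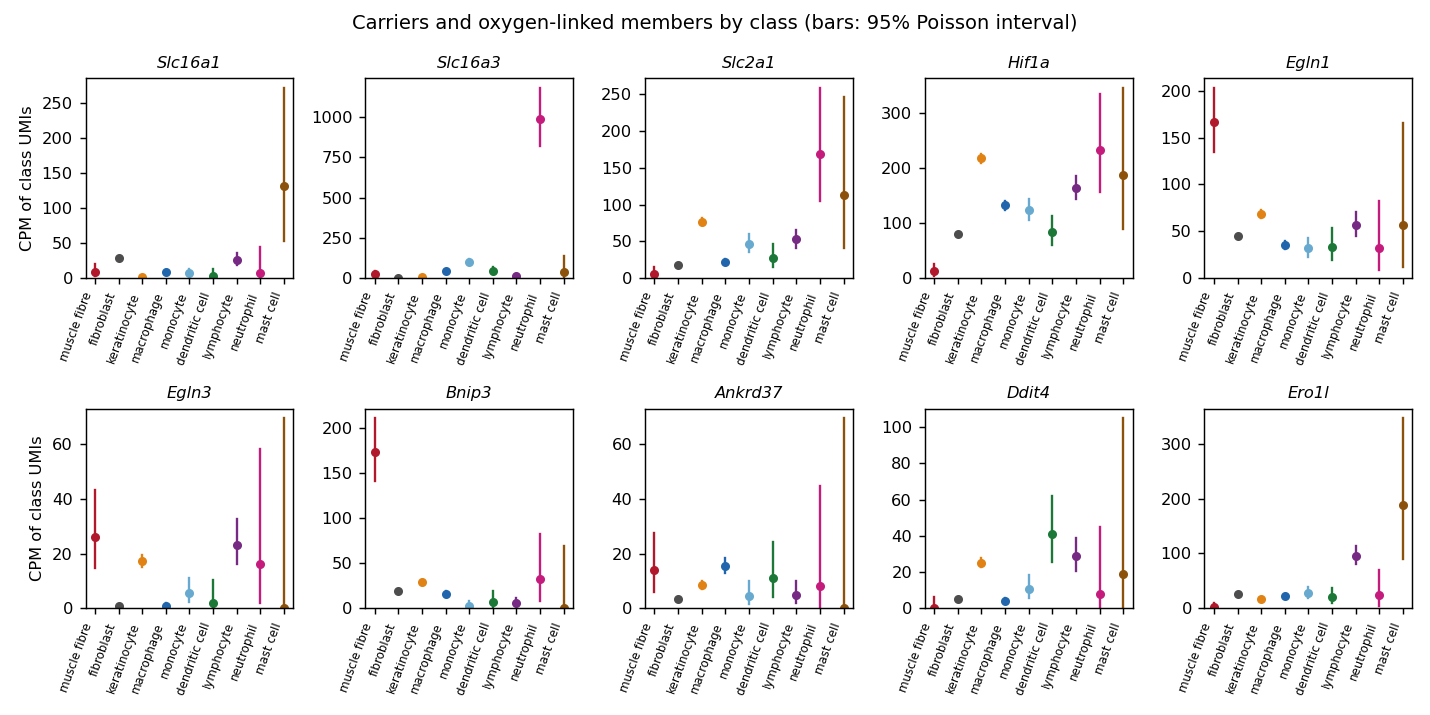
Level in CPM of the 2 lactate carriers, the glucose carrier Slc2a1 and 7 oxygen-linked members in 9 classes, with exact 95% Poisson intervals as bars. Each panel has its own axis from 0; Slc16a3 reaches 990 CPM in neutrophils, and Bnip3 and Egln1 are highest in muscle fibre among these classes.

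Across the 9 classes, 14 members were highest in muscle fibre, 8 in neutrophils, 6 in mast cells, 2 in keratinocytes, 1 in macrophages and 1 in dendritic cells. For 17 of the 32 members the intervals of the highest class and the next overlapped, so their order is not settled by the counts; neutrophils held 124244 and mast cells 53105 UMIs. The intervals lay apart for 13 of the 14 members highest in muscle fibre, for Slc16a3 in neutrophils (990 CPM, with 102 CPM in monocytes) and for Slc16a1 in mast cells (132 CPM). The order of classes was worked out for the members only. Without the share over all genes, these counts do not set the members apart from other genes.

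Cycling barcodes, those with UMIs of 3 or more of 10 cycling genes, were compared with the rest of their class. In cycling keratinocytes (53 barcodes against 1204) 4 of 28 members were higher and 2 lower, against 9.47% and 7.89% of genes. Tpi1 (403 against 173 CPM, 2.32-fold), Pgk1 (2.04-fold), Gapdh (2.03-fold) and Slc16a3 (4.81-fold) were higher, whereas Aldoa, the enzyme just before Tpi1 in the chain, was lower (155 against 346 CPM, 0.448-fold), as was Pdk1 (0.293-fold). Of those, 50 were basal, and against 716 other basal barcodes Aldoa was again lower (151 against 364 CPM, 0.413-fold) and Tpi1 higher (2.41-fold), of 3 higher and 3 lower among 27 members, against 8.51% and 7.7% of genes. Among the lower, Pfkfb3 rested on 2 UMIs (0.374-fold), with an interval of 0.0441 to 1.43. In cycling macrophages (117 against 703) 0 of 25 members were higher and 0 lower, against 5.7% and 4.45% of genes. In cycling lymphocytes, only 9 barcodes, 0 of 16 were higher and 2 lower, Pfkp and Egln1, against 7.08% and 16% of genes. The Egln1 call rested on 2 UMIs (0.305-fold), with an interval of 0.0363 to 1.14.

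Genes whose level over 11 classes was most like the summed glycolysis level were Ckmt2, the mitochondrial creatine kinase gene of muscle (Pearson 0.98 of log2 CPM + 1), 2310002L09Rik, Hjv, Ndufa1 and Gm12224. Without muscle fibre, over 10 classes, they were Abca7 (0.93), Plekhb2, Mapk6, Dhx38 and Tmem192. These genes were picked for the highest correlation over few classes, so the values are no measure of a link to glycolysis, which was not tested. All classes share 1 library, and muscle fibre was the highest class for each of the first 5. Over the 96 muscle fibre barcodes the summed glycolysis level and the muscle marker level had a Pearson correlation of 0.66 and a Spearman correlation of 0.57, with a shared denominator, the UMIs of the barcode.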

How the data were processed

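Raw UMI counts of 1 pooled RNA library of mouse skin were deposited, made by the authors with Cell Ranger on mm10 per the submitters' processing notes; no scaling was applied to them. It held 83725065 UMIs in 8367 barcodes with 0 repeated names. Counting settings are not given in the sources used here, and the hashtag library was not analysed here.

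Barcodes were kept with at least 200 genes and up to 20% mitochondrial UMIs, which removed 240. Kept barcodes had 507 to 58199 UMIs (median 9708.0). A class needed 3 markers of its list and a summed marker level of 1000 CPM (5000 for fibroblast and the basal and suprabasal keratinocyte lists, 10000 for muscle fibre), limits set after the marker distributions were seen. Barcodes that passed gates of 2 or more classes (399) or of none (1366) were left out. Class names rest on these gates alone. Scrublet (Scanpy 1.11.5, 6% doublets expected) called 305 doublets (3.75%), which were kept and left out as an alternative.

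UMIs were summed per class. Levels have exact Poisson, shares Clopper-Pearson and folds exact conditional 95% intervals, for counting error only. A count of 0 was set at 3 counts as a bound. Genes tested had at least 50 UMIs, and list medians used 0.5 UMIs added to each count. Python 3.11.15, NumPy 2.4.6, SciPy 1.17.1, pandas 2.3.3 and matplotlib 3.10.9 were used. On simulated counts for muscle fibre, over 14903 genes, genes changed 4-fold came out at a median of 3.99-fold and 98% were called; genes lowered to 0.25-fold came out at 0.366 and 66% were called, and 8.52% of unchanged genes were called. For keratinocytes 100% of 4-fold genes and 0.356% of unchanged genes were called.

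All 32 members were to be named in classes with at least 50 barcodes. The members and lists were chosen with earlier results of these data known. Alternatives were other gene, mitochondrial and marker limits, doublets or mixed barcodes left out, other treatment of barcodes in several gates, equal weight per barcode, no UMI minimum, and 3 added after the data were seen.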

Additional observations from a re-analysis of the deposited data

How the results depend on the processing

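Of 156 main values recomputed under 12 alternatives, 9 planned and 3 chosen after seeing the data, 129 stayed within their limits. The muscle fibre shares moved as follows. With called doublets left out, Eno3 was 99.7%, Pgam2 99.7%, Pfkm 99.3%, Hk2 100% and Hk3 0%. Without the muscle fibre barcodes with 3 markers of another class they were 99.7%, 99.7%, 99.3%, 100% and 0% in the same order. With barcodes of several gates given to the larger, Eno3 was 99.1%, Pgam2 98.2%, Pfkm 81.2%, Hk1 12.3% and Hk2 81.5%. With equal weight per barcode, Eno3 was 99.7%, Pgam2 99.8%, Pfkm 99.5%, Ldhb 12.2%, Hk2 99.5% and Hk3 0.480%. Without the 10 deepest barcodes, which held 32.1% of muscle fibre UMIs, Pgam2 was 99.9%, Pfkm 100%, Hk2 100% and Hk3 0%. Divided by the median ratio, 6 members were lower in muscle fibre and 12 higher in macrophages, counts without a share of all genes beside them. Eno1 (1.17) and Slc16a1 (1.04) in muscle fibre reversed. The cause was not tested. Of 1472 single-gene folds 1285 stayed within their interval, 185 moved, 2 reversed and 51 had another call. Pfkl, Eno1 and Slc16a1 lost their call in muscle fibre when barcodes of several gates went to the larger (0.945, 0.663 and 0.597-fold), and Eno1 and Slc16a1 also when muscle markers were left out of the totals (0.603 and 0.536-fold). Without the 10 deepest barcodes Pfkl and Pfkfb3 had 0 UMIs in muscle fibre, and bounds of at most 0.616 and 0.644-fold give no call. Pgam1 and Pfkl had no call under the median ratio (0.617 and 0.688). No paired analysis was possible because only 1 library has counts and it has no replicates.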

Other observations

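Related genes outside the list took few UMIs in gated barcodes: Eno1b had 51, Gapdhs 54 and Ldhc 47, and Eno2, the neuronal enolase gene, had 309 with 0 in muscle fibre. Bnip3l, a relative of Bnip3, had 8630 UMIs, of which 45 were in muscle fibre.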
